A study of Mus musculus with 2 samples.

Results

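The Nkx2 and Nkx3 genes encode homeobox transcription factors of the NK class, and 8 of them were described here by the trimethylation of lysine 27 of histone H3 (H3K27me3) that they carried in mouse cartilage cells. They were Nkx2-1, Nkx2-2, Nkx2-3, Nkx2-4, Nkx2-5, Nkx2-6, Nkx2-9 and Nkx3-2, found by their symbols in the deposited annotation of peaks, and they were 8 of 21887 protein-coding genes listed by RefSeq. The cells were primary chondrocytes of wild-type newborn mice (strain CD1), taken from rib cartilage, released with collagenase, cultured overnight and not treated. The data were 1 library of chromatin precipitated with an H3K27me3 antibody (ChIP, 17237574 filtered tags) and 1 library of input DNA (17004082 filtered tags), so no value had a replicate check and no test could be run. The libraries were grouped by their titles, and the antibody tags went against them, since the input carried the tag H3K27me3 and the precipitated DNA the tag input. The sources used here did not state how many animals were pooled.

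H3K27me3 is laid down by Polycomb repressive complex 2 (PRC2), which contains Ezh1 or Ezh2, Eed and Suz12, and it is found over developmental genes that are kept silent in a cell type. NK homeobox genes each act in a few organs. Nkx2-1 specifies lung, thyroid and ventral forebrain, Nkx2-2 and Nkx2-9 act in the ventral neural tube and Nkx2-2 also in the pancreas, Nkx2-4 is a gene of the hypothalamus, Nkx2-5 and Nkx2-6 act in heart and pharynx, and Nkx2-3 acts in gut mesoderm and spleen. Nkx3-2, also called Bapx1, differs from these in that it acts in the sclerotome and in early cartilage, where it promotes the chondrocyte fate. The comparison of interest was therefore between Nkx3-2 and the members that belong to other organs.

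All 8 members had a peak, a region that the authors' broad peak calling placed above the input, within 5 kb of the gene. The mean q-values of all listed peaks reached 0.0991, past the cutoff of 0.05 in the file headers, and those of the member peaks were at most 0.0321. Across all protein-coding genes, 4536 of 21887 (20.7%) had a listed peak within 5 kb, and these are called marked genes here. The 5′ end lay under a peak in 6 of 8 members, against 974 of 21887 genes (4.45%), and the exceptions were Nkx2-4 and Nkx3-2. Peaks lay over the whole gene in 4 of 8 members (Nkx2-3, Nkx2-5, Nkx2-6 and Nkx2-9), against 176 of 21887 genes (0.804%). A peak of 10 kb or more was joined to 7 of 8 members, all but Nkx2-4, against 575 of 21887 genes (2.63%). Of the 13 peaks joined to the members, 8 were 10 kb wide or more, against 670 of all 19359 peaks (3.46%). Only Nkx2-4 and Nkx3-2 had no base of the gene itself under a peak. The mark was measured as a mean over all cells of the preparation, so a weak mark in all cells and a strong mark in some of them cannot be told apart.

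**Figure D1:**
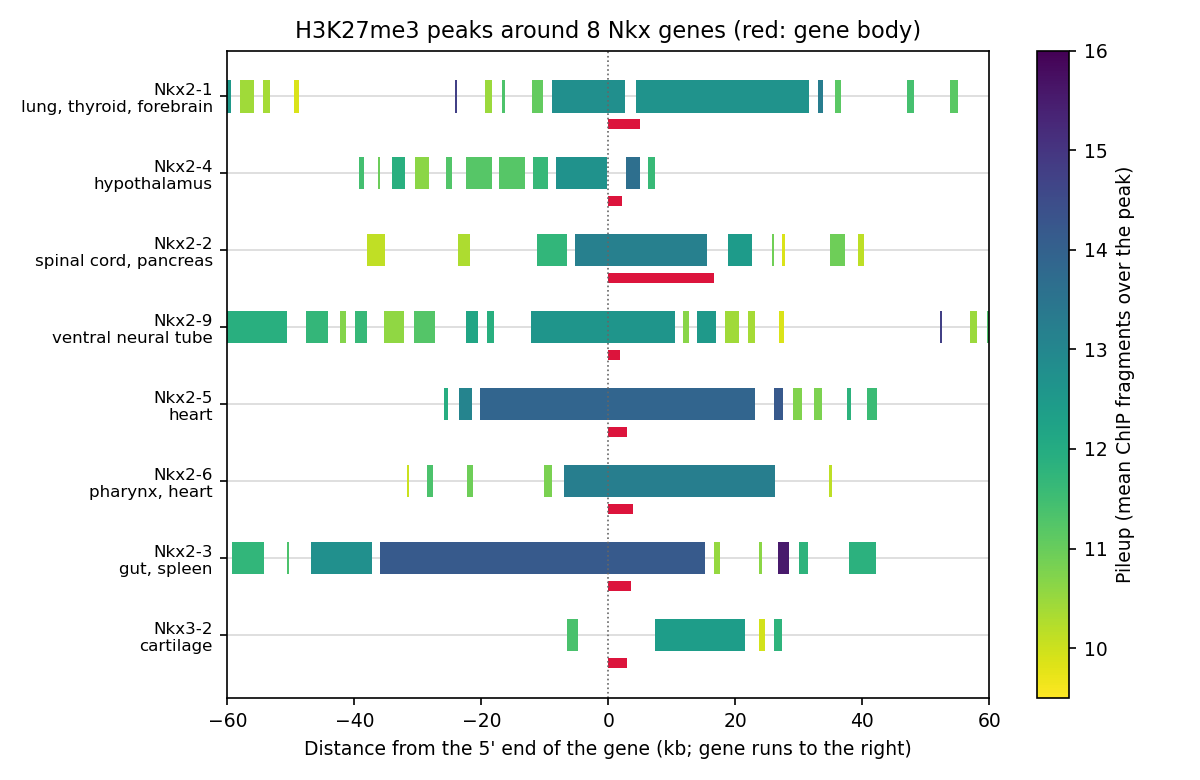
Map of the peaks around the 8 members, with each gene (red bar) running to the right from its 5′ end at 0 on the x axis (distance in kb). Coloured blocks are peaks and their colour gives the pileup in fragments, and the peaks of Nkx3-2 and Nkx2-4 leave the gene itself free while those of the other 6 lie over the 5′ end.

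The widest cover was at the member of gut and spleen. Nkx2-3 (ENSMUSG00000044220, chr19:43612326-43615891, plus strand, GRCm38) lay inside a single peak of 51.2 kb at chr19:43576393-43627603, which reached 35.9 kb before the 5′ end and 15.3 kb past it. This peak had the 12th largest width of the 19359 peaks. Its pileup, which is the ChIP fragment coverage averaged along the peak, was 14.18, its fold enrichment over input was 3.88 and its mean q-value 0.00138. These were the highest pileup and fold enrichment and the lowest q-value among the 13 member peaks. Together with the next peaks at distances of up to 5 kb, 7 peaks spanned 98.1 kb around Nkx2-3. The flanking genes Got1, a cytosolic aspartate aminotransferase gene, and Slc25a28, a mitochondrial iron carrier gene, lay 87.7 and 47.9 kb away and were not marked. Their nearest peaks were 7.21 and 9.25 kb off.

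The heart members also lay inside single wide peaks. Nkx2-5 (ENSMUSG00000015579, chr17:26838665-26841565, minus strand), an early gene of cardiac progenitors, lay inside 1 peak of 43.4 kb at chr17:26818397-26861789, with a pileup of 13.91 and a fold enrichment of 3.75. The peak reached 20.2 kb before the 5′ end and 23.2 kb past it, and it ranked 27th in width among the 19359 peaks. Neither flanking gene was marked, with Bnip1 at 46.1 kb and Kifc5b at 72.1 kb from Nkx2-5. Nkx2-6 (ENSMUSG00000044186, chr14:69171577-69175539, plus strand), a gene of pharyngeal endoderm and early heart, lay inside 1 peak of 33.3 kb at chr14:69164541-69197808 with a pileup of 13.25 and a fold enrichment of 3.55. It reached 7.04 kb before the 5′ end and 26.2 kb past it. The same peak was also joined to 1700092C10Rik.

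The members of lung and brain came in linked pairs on chromosomes 12 and 2. Nkx2-1 (ENSMUSG00000001496, chr12:56531936-56536908, minus strand) had 2 peaks. The wider, of 27.3 kb at chr12:56505317-56532595 with a pileup of 12.65, overlapped the 3′ end by 660 bp, and the other, of 11.5 kb at chr12:56534270-56545768 with a pileup of 12.79, lay over the 5′ end. Between them 1674 bp of the gene was free, which left 66.3% of the gene under peaks. Nkx2-9 (ENSMUSG00000058669, chr12:56611390-56613284, minus strand), at 74.5 kb from Nkx2-1, lay inside 1 peak of 22.8 kb at chr12:56602736-56625499 with a pileup of 12.60 and a fold enrichment of 3.52. The interval between Nkx2-1 and Nkx2-9 was 39.1% under peaks, in 11 peaks that include the ends of both genes' own peaks and had a median length of 1.11 kb and a median pileup of 11.1 fragments. On the far side of Nkx2-9, Pax9, a paired-box gene of the sclerotome, lay 78.1 kb away. The interval was 69.5% under peaks, again with the end of the Nkx2-9 peak included.

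On chromosome 2, Nkx2-2 (ENSMUSG00000027434, chr2:147177547-147194243, minus strand) had a peak of 20.8 kb at chr2:147178635-147199457 over its 5′ end, with a pileup of 13.20 and a fold enrichment of 3.65. A second peak of 3.90 kb began 2104 bp past the 3′ end, and 93.5% of the gene was under peaks. Nkx2-4 (ENSMUSG00000054160, chr2:147083317-147085445, minus strand), 91.0 kb from Nkx2-2, had 3 peaks and none over the gene. The widest was 8.01 kb long, at chr2:147085635-147093639, and began 190 bp before the 5′ end, with a pileup of 12.72. The other two lay 580 and 4082 bp past the 3′ end and were 2.28 and 1.12 kb long, with pileups of 13.64 and 11.63. The gap of 2897 bp between the first of these and the widest peak held the whole gene of 2129 bp. The 2 peaks past the 3′ end were also joined to Xrn2, a nuclear exoribonuclease gene at 5.34 kb from Nkx2-4, and were its only peaks (3.40 kb in all). When peaks at distances of up to 5 kb were joined, the run around Nkx2-4 held 11 peaks over 46.6 kb, so this gene lay within a broken run of peaks and not at an isolated peak.

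Nkx3-2 (ENSMUSG00000049691, chr5:41761484-41764496, minus strand), the member of cartilage, was flanked by peaks on both sides at a distance. A peak of 14.1 kb at chr5:41742991-41757093 began 4391 bp past the 3′ end, and a peak of 1.81 kb at chr5:41769216-41771029 began 4720 bp before the 5′ end. The wide peak had a pileup of 12.40, was enriched 3.41-fold and had a mean q-value of 0.0116. The narrow peak had a pileup of 11.36, was enriched 3.19-fold and had a mean q-value of 0.0321, the lowest pileup and fold enrichment and the highest q-value of the 13 member peaks. The gene of 3013 bp lay in a stretch of 12122 bp free of peaks. The wide peak was still broader than 98.2% of all peaks, and the narrow one than 64.0%. Both counted only through the 5 kb reach of the annotation, and with a reach of 4 kb Nkx3-2 would have no peak, while each of the other 7 members kept at least 1 and Nkx2-4 lost 1 of its 3. The flanking gene Rab28 lay 53.3 kb away with no peak within 28.9 kb, and Bod1l, 23.3 kb away, had 1 peak of 0.563 kb.

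The summed length of the peaks was 15.9 kb for Nkx3-2, 11.4 kb for Nkx2-4, 22.8 kb for Nkx2-9, 24.7 kb for Nkx2-2, 33.3 kb for Nkx2-6, 38.8 kb for Nkx2-1, 43.4 kb for Nkx2-5 and 51.2 kb for Nkx2-3. The median of the 8 was 29.0 kb, against 3.75 kb over the 4536 marked genes. Nkx3-2 therefore had 0.478 times the median of the other 7 members (33.3 kb), yet its summed length was above that of 87.6% of marked genes. This length counts whole peaks. Counting only the bases within the gene and 5 kb on either side, the median of the 8 was 13.1 kb and the ratio of Nkx3-2 to the median of the others was 0.0670, because most of its wide peak lies beyond that limit. At a mean q-value up to 0.01, or a fold enrichment from 3.5, neither peak of Nkx3-2 was left and the ratio was 0. At that fold enrichment Nkx2-4 kept only its peak of 2.28 kb.

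**Figure D2:**
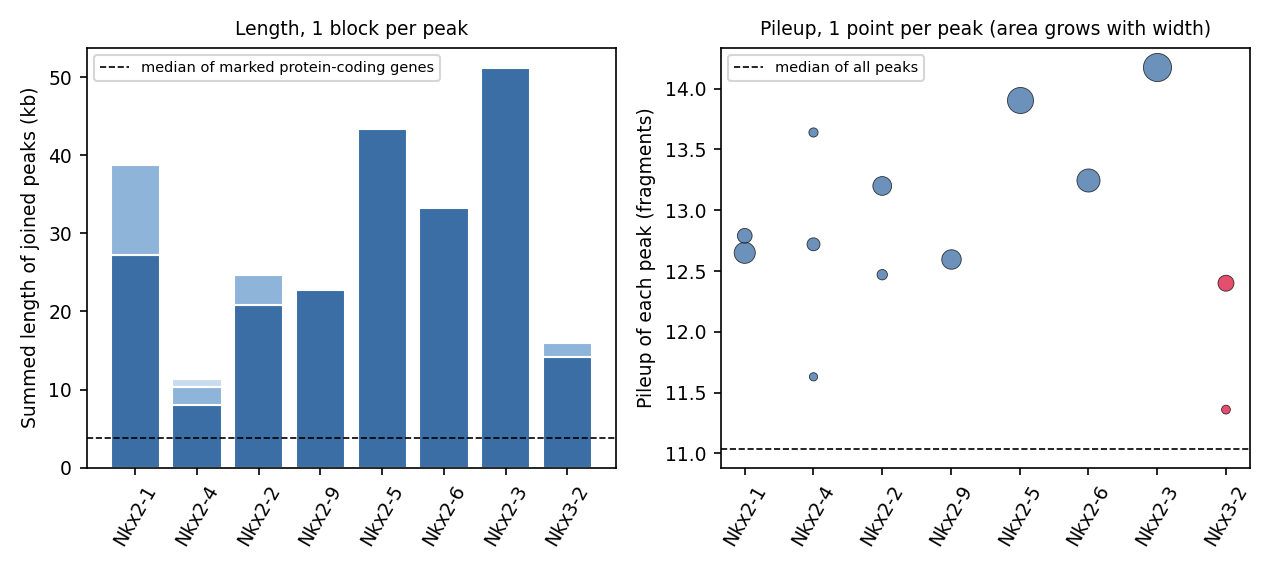
Summed length of the joined peaks in kb (left) with 1 block per peak, and pileup of each peak in fragments (right, axis not from 0), with 1 point per peak, larger for wider peaks, and Nkx3-2 in red. The dashed lines are the medians of marked genes (left) and of all peaks (right). Nkx3-2, at 15.9 kb, was above the marked-gene median of 3.75 kb and below all other members except Nkx2-4, and its points at 12.40 and 11.36 lie above the all-peak median of 11.04.

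The mean pileup, weighted by peak length, was 12.28 fragments for Nkx3-2, 12.60 for Nkx2-9, 12.69 for Nkx2-1, 12.80 for Nkx2-4, 13.08 for Nkx2-2, 13.25 for Nkx2-6, 13.91 for Nkx2-5 and 14.18 for Nkx2-3. With no replicates, no spread was available against which neighbours in this order could be set. Nkx3-2 had 0.939 times the median of the other 7 (13.08) and was lowest of the 8, and the median over marked genes was 11.40. The pileup of Nkx3-2 was above that of 79.5% of marked genes and that of Nkx2-3 above that of 98.6%. The fold enrichment gave the same place to Nkx3-2, with 3.38 against a median of 3.64 in the others and 3.24 over marked genes. The ratio of the fold enrichments was 0.929. The input background under the member peaks was 2.89 fragments in the median, with a range of 2.74 to 3.02, and 2.75 for all peaks.

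Wide peaks were also higher in this peak list, where the 670 peaks of 10 kb or more had a median of 12.61 and all peaks a median of 11.04. The lowest peak of the whole list had a pileup of 9.86, below which no region was called. The peak of Nkx3-2 of 14.1 kb, at 12.40, stood beside a median of 12.33 for the 704 peaks of 8000 to 16000 bp. For the 49 peaks of 32000 bp or more the median was 13.33, with Nkx2-3 (14.18) and Nkx2-5 (13.91) above it and Nkx2-6 (13.25) below it.

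**Figure D3:**
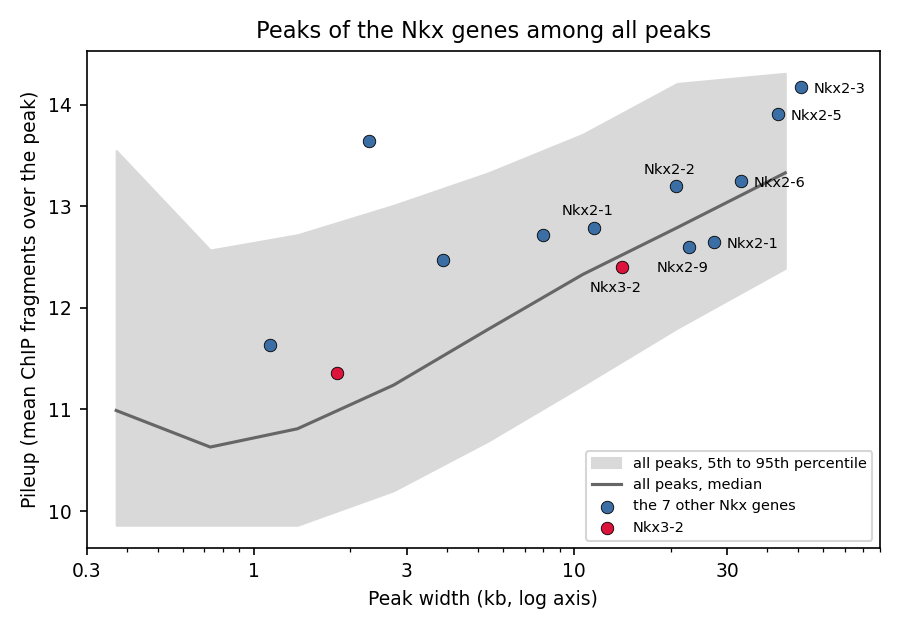
Width of each member peak in kb (log axis) against its pileup in fragments, with the median and the 5th to 95th percentile of all 19359 peaks by width class (line and grey band) and the peaks of Nkx3-2 in red. The 14.1 kb peak of Nkx3-2, at 12.40, lies close to the line, and the 2.28 kb peak of Nkx2-4, at 13.64, lies above the band.

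The cover around the 5′ end showed where Nkx3-2 differed from the others. Within 2.5 kb of the 5′ end, 0% of the bases of Nkx3-2 were under peaks and 46.2% of those of Nkx2-4, against 100% in each of the other 6. Within 10 kb the cover of Nkx3-2 was 22.1%, that of Nkx2-4 59.9%, and that of the other 6 between 85.9% (Nkx2-1) and 100% (Nkx2-3, Nkx2-5 and Nkx2-9). Within 25 kb Nkx3-2 reached 33.7%, which was above 97.4% of all genes, and Nkx2-4 44.6%, while the other 6 lay between 62.7% (Nkx2-2) and 90.7% (Nkx2-5). The 95th percentile of all 17492 genes with a RefSeq start was 22.2% at that distance. At 100 kb Nkx3-2 had 9.33%, the lowest of the 8, and Nkx2-9, with Pax9 and Nkx2-1 nearby, had 60.8%.

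**Figure D4:**
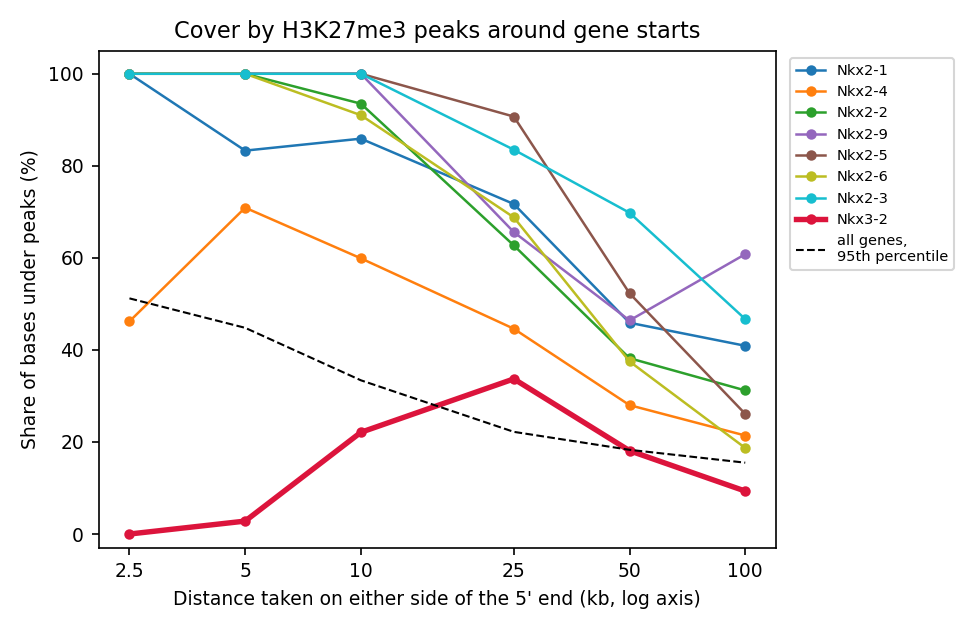
Share of bases under peaks (y axis, percent) within a given distance of the 5′ end on either side (x axis, 2.5 to 100 kb) for the 8 members and the 95th percentile of all genes. Nkx3-2 starts at 0%, lies above the all-gene 95th percentile at 25 kb with 33.7% and below it at the other distances, and is the lowest of the 8 members at every distance.

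After the values of Nkx3-2 were seen, genes with at least its cover within 25 kb were counted, and of these 459 genes 22 (4.79%), Nkx3-2 among them, had no base under a peak within 2.5 kb, whereas 167 (36.4%) were fully covered there. Nkx3-2 set the lower limit of this set, so the other genes had at least its cover, and the count describes the set and does not compare genes of equal cover. Of the 575 genes joined to a peak of 10 kb or more, 70 (12.2%, 95% Wilson interval 9.75 to 15.1%, counting error only) had no peak over the gene itself. The stretch without peaks around those 70 genes, which includes the gene itself, ranged from 2.29 to 964 kb, with a median of 68.4 kb. The 12.1 kb at Nkx3-2 was among the shorter ones. Nkx3-2 is a gene of 3013 bp with peaks within 5 kb on both sides, whereas a peak on a single side was enough to enter this set. The order therefore also depends on gene length and on the joining rule, and it does not show that the gap at Nkx3-2 was small.

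The promoters of 7 members were read from RefSeq windows of 250 bases before to 50 bases after the start (GRCm38.p6). For Nkx2-2 the start of this window (chr2:147186402) lies inside the gene used above, whose 5′ end is at 147194243. Its counts and matches below are therefore of that site and not of the 5′ end. Regions rich in CG dinucleotides are known as sites where Polycomb complexes gather. Bases before the RefSeq start of 4 members are printed because they set the 2 members of widest cover, Nkx2-3 (chr19:43612075-43612324, plus strand) and Nkx2-5 (chr17:26841566-26841815, minus strand), beside the 2 members whose start lay outside every peak, Nkx2-4 (chr2:147085446-147085595, minus strand) and Nkx3-2 (chr5:41764221-41764250, minus strand). They are read 5′ to 3′ and capitals mark CG dinucleotides, and the stretches are not alike. Those of Nkx2-3 and Nkx2-5 are the 250 bases before the RefSeq start used for the window. For Nkx2-5 this start is the deposited 5′ end (chr17:26841565), while the RefSeq gene record reaches further, to 26844988. That of Nkx2-4 is the far 150 bases of its window, beyond the 5′ end of the deposited gene record. That of Nkx3-2 is the 30 bases next to the RefSeq start, which lie inside the longer deposited record.
Nkx2-3: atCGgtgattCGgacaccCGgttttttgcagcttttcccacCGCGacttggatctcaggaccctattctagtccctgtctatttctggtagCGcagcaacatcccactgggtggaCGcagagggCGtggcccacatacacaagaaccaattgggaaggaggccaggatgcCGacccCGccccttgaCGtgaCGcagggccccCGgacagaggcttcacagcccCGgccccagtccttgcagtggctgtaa
Nkx2-5: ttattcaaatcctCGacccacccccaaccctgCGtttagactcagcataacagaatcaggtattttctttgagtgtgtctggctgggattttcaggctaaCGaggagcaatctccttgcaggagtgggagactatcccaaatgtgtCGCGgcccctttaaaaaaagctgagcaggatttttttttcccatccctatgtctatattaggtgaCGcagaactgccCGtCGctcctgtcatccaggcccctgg
Nkx2-4: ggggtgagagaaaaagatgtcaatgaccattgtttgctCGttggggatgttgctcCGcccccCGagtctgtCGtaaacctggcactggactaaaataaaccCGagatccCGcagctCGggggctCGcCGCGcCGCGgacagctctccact
Nkx3-2: accCGggcCGgtccccagagggccaCGggc
The whole windows held 38 CG dinucleotides in Nkx2-4 and 25 in Nkx3-2, the only members with a start outside a peak, and 9 in Nkx2-5, 12 in Nkx2-1, 15 in Nkx2-3, 15 in Nkx2-9 and 17 in Nkx2-2. The median over all 21263 windows was 13.0, with an upper quartile of 24.0. The count of Nkx2-4 was above that of 93.5% of windows and that of Nkx3-2 above that of 75.2%. Over all windows, the 835 that lay wholly under a peak (3.93%) had a median of 13.0 and an upper quartile of 21.0, and the 20428 that did not had a median of 13.0 and an upper quartile of 25. Counted from the RefSeq start, the nearest peak was 290 bp away in Nkx2-4 and 4996 bp away in Nkx3-2.

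**Figure D5:**
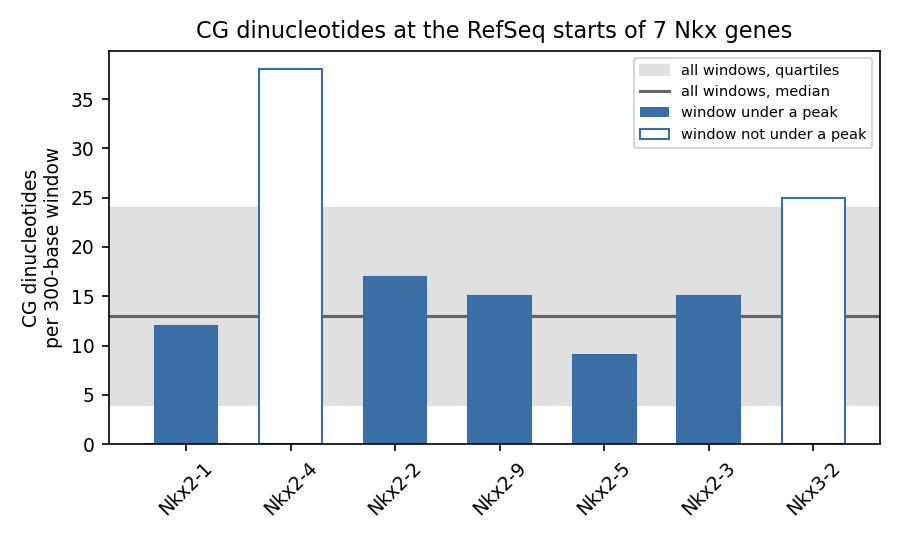
Number of CG dinucleotides in the RefSeq promoter window of 300 bases for 7 members, with filled bars where the window lay under a peak and open bars where it did not, and the median (line) and quartiles (grey band) of all 21263 windows. Nkx2-4 with 38 and Nkx3-2 with 25, the members without a covered start, have the highest counts of the 7.

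The NK2 core CAAGTG, the NK3 core TAAGTG and the TATA box TATAAA were searched on both strands of these windows. The NK2 and NK3 cores differ in their first letter alone, so no position matches both. CAAGTG was found in the window of Nkx2-2 only, and 13.1% of all windows held it. TAAGTG was found in that of Nkx2-1 only, and 8.37% of all windows held it. TATAAA was found in none of the 7 and in 12.6% of all windows. A match of this kind describes the letters and not a binding site.

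Of a list of further NK genes, 5 of 5 were marked as well. Nkx6-1, a gene of motor neurons and beta cells, had 33.3 kb of peaks, Nkx1-1 11.8 kb, Nkx1-2 10.4 kb, Nkx6-2 9.19 kb and Nkx6-3 2.94 kb. The 5′ end lay under a peak in 4 of the 5, all but Nkx6-3. Over all protein-coding genes these shares were 20.7% and 4.45%.

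Genes that act with each member in its organ were taken from lists. Around Nkx3-2, 10 of 16 sclerotome and cartilage genes were marked (20.7% of all genes) and 7 had the 5′ end under a peak (4.45% of all genes), with a median summed length of 19.8 kb. Pax1 and Pax9, which act upstream of Nkx3-2 in the sclerotome, had 33.8 and 31.4 kb, with 70.6 and 66.7% of the gene under peaks, whereas Nkx3-2 had 15.9 kb and none of the gene. Hand2 had 51.2 kb, Uncx, a homeobox gene of the posterior sclerotome, 35.6 kb, Tbx18 21.9 kb and Shh, the ligand that induces the sclerotome, 17.8 kb. The other 4 marked genes were shorter in sum than Nkx3-2, with 10.9 kb at Meox1, 7.09 kb at Bmp4, 2.73 kb at Meox2 and 2.54 kb at Gdf5, a joint-forming ligand gene that, like Nkx3-2, had 0% of the gene and no 5′ end under a peak. The 6 that were not marked were Sox5, Sox6, Sox8, Sox9, Nog and Runx2, among them the Sox genes that drive cartilage formation. These genes are named because they are the rest of the list.

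Of the heart genes that act with Nkx2-5 and Nkx2-6, 8 of 12 were marked (median summed length 24.3 kb), among them Tbx5 with 83.4 kb, Gata4 with 57.9 kb, Hand2 with 51.2 kb, Isl1 with 27.0 kb, Gata6 with 21.6 kb and Hand1 with 21.6 kb. Of the lung, thyroid and forebrain genes around Nkx2-1 and Nkx2-4, 11 of 15 were marked (median 24.3 kb), and the longest peaks in sum were those of Sox2 with 37.6 kb, Lhx6 with 29.9 kb, Sim1 with 29.6 kb, Foxa1 with 27.8 kb, Lhx8 with 26.5 kb and Otp with 24.3 kb. All 14 ventral neural tube and pancreas genes around Nkx2-2 and Nkx2-9 were marked (median 17.8 kb), and Olig2 had 43.6 kb, Pax6 41.2 kb, Mnx1 32.4 kb, Pdx1 30.2 kb, Olig1 21.6 kb and Foxa2 21.6 kb. Around Nkx2-3, 5 of 7 gut and spleen genes were marked (median 30.2 kb), namely Tlx1 with 36.3 kb, Barx1 with 31.9 kb, Wt1 with 30.2 kb, Tcf21 with 20.6 kb and Foxf1 with 20.1 kb. These lists are mostly of developmental regulators chosen with the earlier results known, so their shares are given beside the 20.7% of all genes as a description.

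The label of the cells was set against chondrocyte genes. None of 14 chondrocyte genes, Sox9, Col2a1 and Acan among them, carried a peak (95% Wilson interval 0 to 21.5%, which includes the 20.7% of all genes), and their nearest peaks were between 31.2 kb (Col11a2) and 2127 kb (Hapln1) away. Genes of other cells that a rib dissection could hold were marked in 3 of 4 for skeletal muscle, 3 of 4 for blood, 1 of 4 for fibroblasts and bone and 1 of 3 for endothelium, given beside the same 20.7% as a description of short lists. The 5′ end lay under a peak in 1 of 4, 1 of 4, 0 of 4 and 1 of 3 of them (4.45% of all genes). Some of the peaks were short, with 0.370 kb at Myf5 and 0.947 kb at Ptprc. A peak list shows which genes carried the mark and does not measure their expression.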

How the data were processed

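H3K27me3 ChIP and input libraries (1 each) from wild-type rib chondrocytes were compared. CASAVA 1.8.4, Bowtie2, MACS2 and mm10 are named in the submitters' processing notes. Per the file headers, peaks were called with MACS 2.1.0.20140616 in broad mode against input, with a q-value cutoff of 0.05, a fragment length of 294 bp, tags of 100 bp and the larger library scaled to the smaller. Pileup is a coverage signal deposited per peak. The deposited fold enrichment is a ratio of pileup to input background after adding 1 to each. The authors deposited mean q-values as −log10 values, which were converted back, and p-values that were not used. The authors' table joins peaks to Ensembl genes within 5 kb, by a tool not given in the sources used here.

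Peaks were assigned to genes by symbol. All 19359 peaks had equal values in both tables. Protein-coding genes and starts came from RefSeq GRCm38.p6. Python 3.11.15, pandas 2.3.3 and numpy 2.4.6 were used, and the overlap counts were tested on simulated data. Named genes were the members, other Nkx genes, the nearest gene on each side, the marked genes of each list (the 6 longest where there were more) and genes sharing a member's peak. Members and lists were chosen with earlier results of these data known. Some genes that this rule or the lists would name are not reported here.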

Additional observations from a re-analysis of the deposited data

How the results depend on the processing

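The 6 results on the members were recomputed under alternatives that gave 37 values, of which 25 equalled the reported value as printed and 12 did not, and no ratio crossed 1. The count of covered 5′ ends (6) and of fully covered genes (4) was the same in every alternative that gave one. Nkx3-2 had no peak left once a mean q-value up to 0.01 or a fold enrichment from 3.5 was required, so its ratio of summed length was 0 and its pileup ratio had no value, and 7 members had a peak. At the fold limit of 3.5, Nkx2-4 kept only its peak of 2.28 kb (3.67) and lost its widest, of 8.01 kb (3.48). The wide peak of Nkx3-2 was enriched 3.41-fold. With peaks limited to the gene and 5 kb on either side, the median summed length was 13.1 kb and the ratio of Nkx3-2 0.0670. The pileup ratio was 0.936 with the highest pileup and 0.929 with fold enrichment. With a peak over the gene itself required, 6 members counted. Reaches of 1, 2 and 4 kb, chosen after seeing the data, each gave 7.

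No paired analysis was possible because there was only 1 ChIP and 1 input library. Leaving out a replicate was not possible for the same reason. H3K27me3 in a stretch without a peak, as at Nkx3-2 and Nkx2-4, was not measured here. The lowest pileup of a called peak, 9.86, is a mean along a peak and does not tell how high the coverage of such a stretch was. The deposited values are means over peaks, so the coverage inside a gap was not analysed here.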

Other observations

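The genes without a peak in the lists of organ genes are named here after their values were seen. The 4 unmarked heart genes were Mef2c and Srf, transcription factors of muscle, and Nppa and Myh6, which encode atrial natriuretic peptide and a cardiac myosin. The 4 unmarked genes of lung, thyroid and forebrain were Sftpb, Sftpc, Scgb1a1 and Tg, which encode surfactant proteins, a club cell protein and thyroglobulin and are known targets of Nkx2-1. In the gut and spleen list Foxl1 and Madcam1 were unmarked, the latter an adhesion molecule whose expression depends on Nkx2-3.

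The interval of 92.1 kb between Nkx2-4 and Nkx2-2 was 35.4% under peaks, in 14 peaks with a median pileup of 11.2 fragments. The interval of 168 kb between Nkx2-2 and Pax1 was 26.7% under peaks, in 15 peaks with a median pileup of 10.6 fragments. Both shares were lower than the 69.5% between Nkx2-9 and Pax9. All of these intervals run from gene to gene and hold the parts of the flanking genes' own peaks that lie in them. They also differ in length, so the shares do not compare the ground outside those peaks.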
